A study of Mus musculus with 12 samples.

Results

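The heat shock chaperone set comprised 10 genes, Hspa1a, Hspa1b, Hspa8, Dnaja1, Dnajb1, Hsph1, Bag3, Hsp90aa1, Hspd1 and Hspe1, taken from the 33641 genes with a transcript level in the deposited files. They were chosen by symbol, with earlier results of these data known, as main members of the HSP70, HSP40, HSP110, HSP90 and HSP60 families and their cofactor Bag3. All 10 passed the filter on low values, as did 12526 genes in all. Levels were measured by RNA sequencing of 12 mouse heart samples, 3 each from the left ventricle (LV) and right ventricle (RV) of WT-PLN and R14del-PLN hearts. The samples are labelled C57BL/6J, with an age of 12 to 14 weeks. Both groups carried human phospholamban coding sequence, knocked into the start codon of the mouse gene. The founder chimeras were of mixed 129/Sv-CP and C57Bl/6J background and were bred to Sox2-Cre mice, which express Cre in the early embryo. The R14del-PLN mice were described as heterozygous males with an allele that lacks arginine 14 of phospholamban, the inhibitor of the sarcoplasmic reticulum calcium pump, and the controls had the intact human sequence. Mutant samples carry KO in their titles and R14del-PLN as genotype, and are called R14del-PLN here. The labels do not state that LV and RV samples with the same number came from 1 mouse, and the p-values measure the spread between these samples.

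Heat shock proteins bind unfolded proteins and help them to fold, to refold or to be degraded. Hspa1a and Hspa1b encode the inducible HSP70, which is scarce in unstressed cells, and Hspa8 encodes its constitutive relative. HSP40 proteins such as Dnajb1 and Dnaja1 bring clients to HSP70 and stimulate its ATPase, Hsph1 (HSP110) and Bag3 release the bound nucleotide, and Hsp90aa1 completes the folding of kinases and receptors. Hspe1 and Hspd1 form the folding chamber of the mitochondrial matrix. Most of these genes are targets of the heat shock factor HSF1, which binds repeats of the sequence GAA in alternating orientation, and in the heart Bag3 with HSP70 maintains the proteins of the Z disc.

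Because the members were described as a group, the promoter sequences around their annotated starts are shown first. Hspa1a (chromosome 17, 34969190 to 34972156, minus strand, GRCm38) and Hspa1b (chromosome 17, 34956436 to 34959238, minus strand) are intronless neighbours. Their transcripts, of 2967 and 2803 bases, aligned at 99.2% identity over 2201 bases, and the rest of each lay outside this alignment. The 2 windows of 300 bases, which run from 250 bases before to 50 bases after the start, are given 5′ to 3′ on the minus strand from RefSeq (GRCm38.p6), with the motif GAANNTTC in capitals. The motif begins 104 bases before the start in both.
Hspa1a (chr17:34972107-34972406): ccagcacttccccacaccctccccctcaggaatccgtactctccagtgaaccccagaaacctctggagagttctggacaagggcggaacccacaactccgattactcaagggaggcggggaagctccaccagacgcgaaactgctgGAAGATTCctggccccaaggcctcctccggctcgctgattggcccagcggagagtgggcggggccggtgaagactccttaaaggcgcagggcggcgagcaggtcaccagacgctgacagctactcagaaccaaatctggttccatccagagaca
Hspa1b (chr17:34959189-34959488): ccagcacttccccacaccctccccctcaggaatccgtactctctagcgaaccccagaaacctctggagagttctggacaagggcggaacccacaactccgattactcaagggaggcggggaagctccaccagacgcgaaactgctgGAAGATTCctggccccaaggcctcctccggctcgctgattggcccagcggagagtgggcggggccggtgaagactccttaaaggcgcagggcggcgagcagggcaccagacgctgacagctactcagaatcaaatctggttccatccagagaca
Counting from 1 at the 5′ end of the window and with the base of Hspa1a first, the windows differed by C44T, T47C, T249G and C276T and were the same at 296 of 300 positions. Neither the aligned part of the transcripts nor the promoters therefore separate the 2 genes well, and their summed TPM is given beside the single values.

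Windows were present for 8 of the 10 members (13 windows), and 7 of these members held GAANNTTC or TTCNNGAA, each of which is its own reverse complement. The longer forms GAANNTTCNNGAA and TTCNNGAANNTTC, which contain the shorter motifs, were found in Hspd1, Hspe1 and Hsph1. Over the 27025 genes with a window of this length, 17.0% held a short form and 0.662% a long form in at least 1 window. By window, 8 of the 13 windows of the members held a short form, against 15.1% of all 32851 windows. These 8 windows are not separate matches. The Hsph1 windows overlap and hold the same matches, Hspd1 and Hspe1 share a repeat, and the Hspa1a and Hspa1b windows are nearly identical. Such a match describes the letters of a window and does not show binding. The window of Hspe1 (plus strand), of the longer Hsph1 start (minus strand) and of the first Dnaja1 start (plus strand) are printed to show a compound repeat, separated repeats and a single repeat, with matches in capitals.
Hspe1 (chr1:55087898-55088197): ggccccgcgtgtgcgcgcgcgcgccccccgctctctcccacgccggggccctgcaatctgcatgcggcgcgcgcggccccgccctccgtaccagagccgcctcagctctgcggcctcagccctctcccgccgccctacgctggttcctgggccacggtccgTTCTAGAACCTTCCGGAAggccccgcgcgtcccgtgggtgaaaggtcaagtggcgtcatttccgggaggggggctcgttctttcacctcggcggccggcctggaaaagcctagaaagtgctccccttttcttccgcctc
Hsph1 (chr5:149636287-149636586): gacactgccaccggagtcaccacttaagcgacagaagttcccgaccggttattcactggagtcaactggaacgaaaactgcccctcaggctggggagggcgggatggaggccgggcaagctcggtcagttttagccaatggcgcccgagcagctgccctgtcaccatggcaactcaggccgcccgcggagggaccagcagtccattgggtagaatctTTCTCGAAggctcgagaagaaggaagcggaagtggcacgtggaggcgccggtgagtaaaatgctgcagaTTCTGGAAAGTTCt
Dnaja1 (chr4:40722218-40722517): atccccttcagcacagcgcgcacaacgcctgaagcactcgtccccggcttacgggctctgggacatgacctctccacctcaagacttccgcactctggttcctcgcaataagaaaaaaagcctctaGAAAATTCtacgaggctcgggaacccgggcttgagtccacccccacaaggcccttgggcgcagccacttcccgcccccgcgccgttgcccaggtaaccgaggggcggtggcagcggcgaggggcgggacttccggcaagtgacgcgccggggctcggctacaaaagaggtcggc
Hspd1 and Hspe1 are transcribed away from each other, and the repeat of the Hspe1 window lies on the opposite strand in 1 of the 2 Hspd1 windows. In Bag3 the match (GAANNTTC) lay 42 bases after the start. The 2 windows of Dnajb1 held none of these letters.

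The labelled tissue was checked by its transcripts. The 5 cardiomyocyte markers (Myh6, Tnnt2, Actc1, Myl2 and Ryr2) summed to between 24936 and 38214 TPM in every group. Pln was between 1559 and 1963 TPM in the 12 samples, and how reads of the human sequence were mapped to it is not stated. The LV and RV samples numbered 1 of WT-PLN hearts stood apart, since 4 genes of the Y chromosome (Uty, Ddx3y, Eif2s3y and Kdm5d) ranged from 0.0159 to 0.191 TPM there and from 3.03 to 30.6 TPM in the remaining 10 samples. The study describes its mice as male. The genotype comparisons are therefore also given without these 2 samples, for the members by value and for the other gene lists by count. RV number 3 of R14del-PLN hearts was alone in its sequencing run, while 11 samples shared another. In tissue, fewer cells of a type and less RNA per cell cannot be told apart.

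On the TPM scale, which is corrected for gene length, the members spanned a wide range of levels. Hspa8 was highest, at 417 to 789 TPM over the 12 samples, and did not overlap with Hspd1, at 148 to 204 TPM. Hspe1 (82.5 to 119.9 TPM) lay below Hspd1 in every sample, and its range overlapped with those of Bag3 (64.0 to 119.6 TPM) and Hsp90aa1 (56.6 to 144 TPM). Dnaja1 followed at 33.5 to 105 TPM, overlapping with Hsp90aa1 above it and with Hsph1 (13.8 to 45.1 TPM) below it. Dnajb1 (3.03 to 14.6 TPM) and the inducible genes Hspa1a (0.513 to 18.6 TPM) and Hspa1b (0.426 to 24.6 TPM) were lowest, with overlapping ranges.

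To determine whether the inducible HSP70 differed between genotypes, Hspa1a and Hspa1b were examined in every sample. In LV of WT-PLN hearts, Hspa1a was at 1.42, 18.4 and 9.92 TPM in samples 1, 2 and 3, and in the R14del-PLN LV at 0.920, 1.08 and 1.04 TPM. Hspa1b was at 0.713, 24.6 and 10.4 TPM in the WT-PLN samples and at 0.975, 0.610 and 0.778 TPM in the R14del-PLN samples of the same ventricle. Samples 2 and 3 of WT-PLN hearts were thus high for both genes, while sample 1 was near the R14del-PLN samples. In RV, Hspa1a was at 0.942, 18.6 and 3.96 TPM in WT-PLN and at 0.513, 0.946 and 0.786 TPM in R14del-PLN samples. Hspa1b in RV was at 0.600, 19.1 and 4.67 TPM in WT-PLN and at 0.773, 0.637 and 0.426 TPM in R14del-PLN samples. The order of the WT-PLN samples was the same in both ventricles and for both genes, with sample 2 highest and sample 1 lowest.

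The summed level of Hspa1a and Hspa1b, which does not depend on how reads were split between them, was 21.8 ± 20.5 TPM in the WT-PLN LV and 1.80 ± 0.102 TPM in the R14del-PLN LV (SD, n = 3 each). In RV it was 16.0 ± 19.2 TPM and 1.36 ± 0.197 TPM (SD, n = 3 each). The LV ranges did not overlap, since WT-PLN sample 1 was at 2.14 TPM and the highest R14del-PLN sample at 1.89 TPM. In RV, WT-PLN sample 1 at 1.54 TPM lay inside the R14del-PLN range of 1.21 to 1.58 TPM. On the log2(TPM + 1) scale, which understates differences at low levels, the difference between R14del-PLN and WT-PLN hearts was -2.35 in LV (standard error 0.89, adjusted p = 0.386) and -2.06 in RV (standard error 0.89, adjusted p = 0.753). A two-sided exact permutation test of the log2 means gave p = 0.1 in LV, which is the smallest value that 3 against 3 samples allow, and p = 0.2 in RV. Neither difference passed the test, and the WT-PLN samples spread widely. Hspa1a made up 39.9% to 66.6% of the sum over the 12 samples.

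Leaving out both WT-PLN samples numbered 1, which kept 2 WT-PLN samples in each ventricle, changed this call. The difference of the summed level was then -3.45 in LV (adjusted p = 0.00204) and -3.04 in RV (adjusted p = 0.00669). These samples held the lowest WT-PLN values, so that removing them raises the difference by construction. Without WT-PLN sample 2 of the ventricle, the difference was -1.55 in LV and -1.07 in RV. Over the 27 alternatives tried, the limma adjusted p of the sum ranged from 0.00204 to 0.875 in LV and from 0.00669 to 1.0 in RV.

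The HSP40 genes were next. Dnajb1 (chromosome 8, 83608193 to 83612653), the classical partner of inducible HSP70, was at 4.57, 14.6 and 13.8 TPM in the WT-PLN LV and at 3.45, 3.71 and 4.30 TPM in the R14del-PLN LV. Its RV levels were 4.17, 11.5 and 11.4 TPM in WT-PLN and 3.52, 3.12 and 3.03 TPM in R14del-PLN samples. The ranges did not overlap in either ventricle, but WT-PLN sample 1 was close to the R14del-PLN samples in both. The log2 difference of Dnajb1 was -1.18 in LV (standard error 0.37, adjusted p = 0.266) and -1.14 in RV (standard error 0.37, adjusted p = 0.458). Dnajb1 was lower in all 3 R14del-PLN samples than in any WT-PLN sample of the ventricle, a pattern shared by 8.47% of the tested genes for LV and 5.79% for RV.

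Dnaja1 (chromosome 4, 40722150 to 40737149), a type I HSP40 of the cytosol, was at 36.9, 105 and 81.3 TPM in the WT-PLN LV and at 37.9, 37.4 and 47.2 TPM in the R14del-PLN LV. Values in RV were 37.0, 83.7 and 73.5 TPM in WT-PLN and 39.0, 43.3 and 33.5 TPM in R14del-PLN samples. WT-PLN samples 2 and 3 were above every R14del-PLN sample in both ventricles, and sample 1 was below the R14del-PLN range in LV and inside it in RV. The log2 difference of Dnaja1 was -0.73 in LV (standard error 0.34, adjusted p = 0.519) and -0.66 in RV (standard error 0.34, adjusted p = 0.869). Dnaja1 overlaps Smu1 on the opposite strand, and whether the values were counted by strand is not stated.

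The nucleotide exchange factors Hsph1 and Bag3 followed, and no test compared their differences with each other. Hsph1 (chromosome 5, 149614287 to 149636376) was at 17.8, 45.1 and 29.4 TPM in the WT-PLN LV and at 14.7, 16.1 and 24.2 TPM in the R14del-PLN LV. In RV the gene was at 13.8, 29.6 and 27.5 TPM in WT-PLN and at 15.4, 17.5 and 16.9 TPM in R14del-PLN samples. WT-PLN samples 2 and 3 again exceeded all R14del-PLN samples. Over all samples, the log2 differences of Hsph1 were -0.65 in LV (standard error 0.32, adjusted p = 0.547) and -0.42 in RV (standard error 0.32, adjusted p = 1.0). Bag3 (chromosome 7, 128523616 to 128546981) was at 94.9, 119.6 and 113.8 TPM in the WT-PLN LV and at 85.3, 75.8 and 98.3 TPM in the R14del-PLN LV. In RV, Bag3 was at 75.0, 97.4 and 95.4 TPM in WT-PLN and at 64.0, 93.8 and 78.8 TPM in R14del-PLN samples. Its log2 differences were -0.34 in LV (standard error 0.16, adjusted p = 0.548) and -0.18 in RV (standard error 0.16, adjusted p = 1.0).

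Hspa8 (chromosome 9, 40800984 to 40810087), the most abundant member, was at 567, 789 and 766 TPM in the WT-PLN LV and at 474, 454 and 556 TPM in the R14del-PLN LV. Its RV levels were 529, 683 and 586 TPM in WT-PLN and 445, 450.4 and 417 TPM in R14del-PLN samples. Every WT-PLN sample was above every R14del-PLN sample of its ventricle, and the log2 differences were -0.50 in LV (standard error 0.15, adjusted p = 0.222) and -0.45 in RV (standard error 0.15, adjusted p = 0.468). The level of Hspa8 is uncertain, because the processed pseudogene Gm15459 (chromosome 5) matched its coding transcripts at 99.7% identity over 1941 bases and was listed at 314 to 639 TPM. Gm15459 held 42.9% to 46.6% of the sum of both in each sample, and the log2 difference of that sum was -0.51 in LV and -0.45 in RV (adjusted p = 0.213 and 0.452).

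Hsp90aa1 (chromosome 12, 110690605 to 110702728), the stress-inducible cytosolic HSP90, was at 74.0, 144 and 134 TPM in the WT-PLN LV and at 76.0, 74.2 and 91.5 TPM in the R14del-PLN LV. Values in RV were 64.8, 126 and 99.3 TPM in WT-PLN and 56.6, 81.2 and 60.3 TPM in R14del-PLN samples. WT-PLN samples 2 and 3 were above all R14del-PLN samples in each ventricle and sample 1 was not, and the log2 differences were -0.49 in LV (adjusted p = 0.601) and -0.51 in RV (adjusted p = 0.872).

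Of the mitochondrial pair, Hspd1 did not show this pattern in either ventricle, and Hspe1 showed it in RV only. Hspd1 (chromosome 1, 55077835 to 55088243) was at 167, 169 and 173 TPM in the WT-PLN LV and at 148, 149 and 204 TPM in the R14del-PLN LV. In RV it was at 170.1, 164 and 178 TPM in WT-PLN and at 161, 201 and 155 TPM in R14del-PLN samples. The WT-PLN values of Hspd1 were the tightest of the set, and they lay inside the R14del-PLN range in both ventricles. Hspe1 (chromosome 1, 55088132 to 55091307) was at 99.0, 113 and 103 TPM in the WT-PLN LV and at 89.3, 84.4 and 119.9 TPM in the R14del-PLN LV. Hspe1 was at 89.6, 102 and 105 TPM in the WT-PLN RV and at 99.5, 88.5 and 82.5 TPM in the R14del-PLN RV. The log2 differences were -0.04 (standard error 0.14) for Hspd1 and -0.12 (standard error 0.14) for Hspe1 in LV, and both turned positive under upper quartile scaling, at 0.08 and 0.0017. In RV they were 0.0024 and -0.13 (standard error 0.14 each), so that differences of this size were within the error. The 2 genes overlap on opposite strands at their starts.

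**Figure D1:**
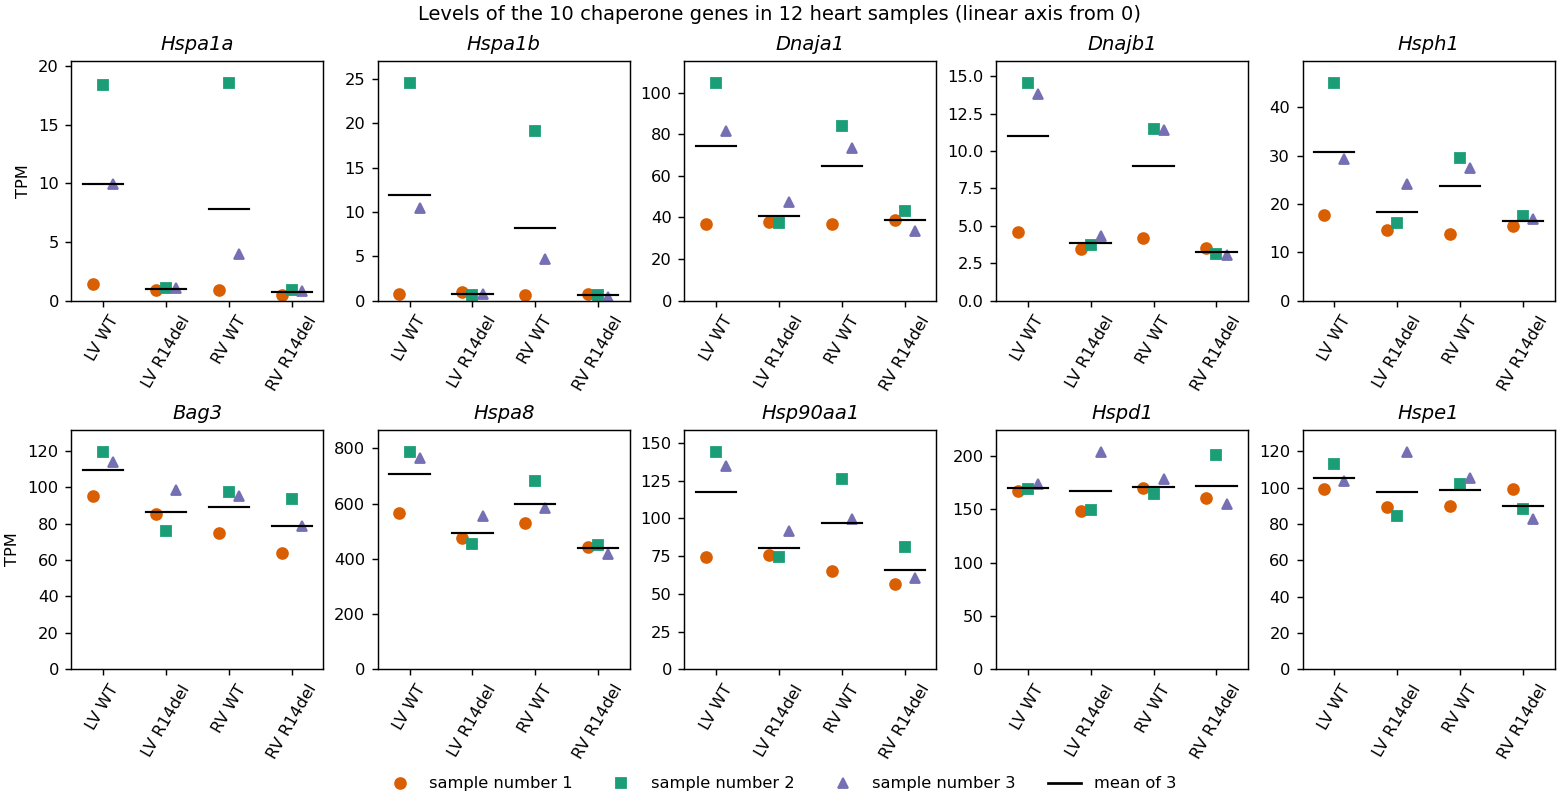
TPM (linear axis from 0) of each of the 10 chaperone genes in the LV and RV of WT-PLN and R14del-PLN hearts, with 1 symbol per sample (circle, square and triangle for samples 1, 2 and 3) and a line at the mean of 3. For Hspa1a, Hspa1b, Dnaja1, Dnajb1, Hsph1 and Hsp90aa1 the circle of each WT-PLN group lies near the R14del-PLN samples, while the square and triangle lie above them.

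Over the set, limma called 0 of the 10 members in LV (adjusted p up to 0.05 with at least a 1.5-fold difference), where 0.519% of all tested genes were called. In RV, 0 of 10 were called, against 0.271% of all tested genes. At an unadjusted p of at most 0.05, 5 members were lower in LV (7.85% of all tested genes) and 3 were lower in RV (3.4% of all tested genes), and none was higher. All 10 members had a negative log2 difference in LV and 9 in RV, with medians of -0.58 in LV and -0.48 in RV, while the medians over all tested genes were -0.09 and -0.0034. Upper quartile scaling and quantile normalization moved the LV median of all genes by 0.0986 and 0.1001, and relative to the median of all genes 9 members were lower in each ventricle with and without these scalings. The study itself reports 4 of the members, Hspa1a, Hspa1b, Dnaja1 and Dnajb1, as downregulated in both ventricles. It used the same cut-offs of 0.05 and 1.5-fold, but tested in CLC Genomics Workbench and not by limma on TPM. The 0 calls here with all 12 samples thus differ from the published calls, and the reason was not tested. All 10 members were chosen with earlier results of these data known, so the direction of the set is not independent evidence.

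The spread between samples of a group differed widely among the members. The residual SD of log2(TPM + 1) within groups was 1.15 for Hspa1a and 1.36 for Hspa1b, at percentiles 99.4 and 99.6 among the 12526 tested genes, whose median was 0.188. Dnajb1, Dnaja1, Hsph1 and Hsp90aa1 followed, with residual SDs of 0.561, 0.511, 0.472 and 0.389 and percentiles of 97.4, 96.9, 96.4 and 94.3. Bag3 was at percentile 64.3, Hspa8 at 45.5, Hspe1 at 37.7 and Hspd1 at 36.9. For the inducible genes this spread lay in the WT-PLN groups: the SD of Hspa1b was 2.00 in LV and 1.83 in the WT-PLN RV, and 0.147 and 0.159 in R14del-PLN hearts. Hspd1 had the opposite order, with 0.0281 and 0.0586 in WT-PLN and 0.262 and 0.2002 in R14del-PLN hearts.

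**Figure D2:**
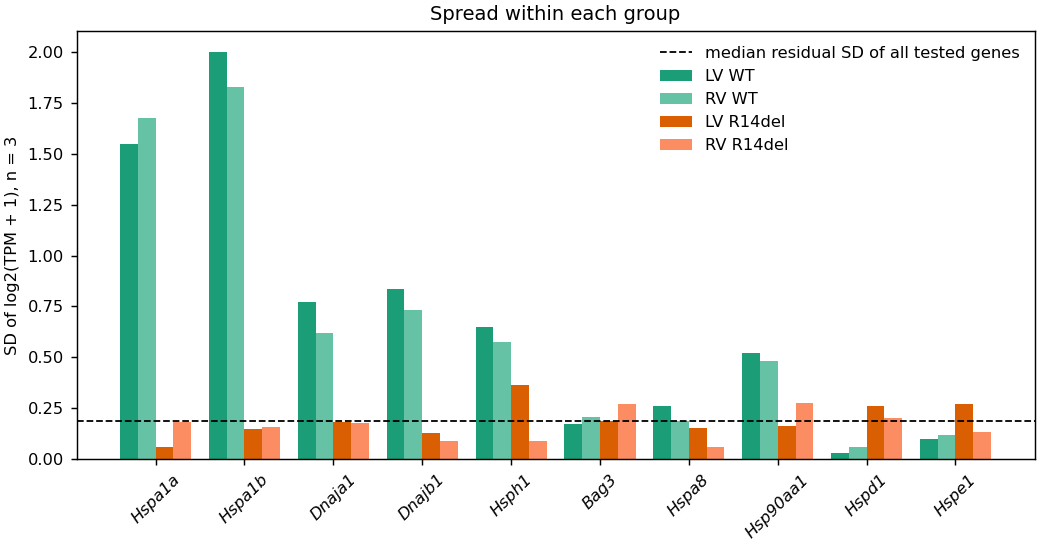
Bars give the SD of log2(TPM + 1) over the 3 samples of each group for each chaperone gene, and the dashed line marks the median residual SD of all tested genes (0.188). The WT-PLN bars of Hspa1a and Hspa1b reach 1.55 to 2.00, and their R14del-PLN bars stay at or below the line.

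The samples numbered 1 were then set against the others. WT-PLN sample 1 was the lowest of its group for 10 of 10 members in LV, as it was for 70.3% of all tested genes, and for 9 of 10 members in RV, against 50.1% of all tested genes. WT-PLN samples 2 and 3 both lay above the R14del-PLN range for 8 members in LV (24.9% of all tested genes) and 9 in RV (13.2% of all tested genes). WT-PLN sample 1 was inside the R14del-PLN range for 5 members in LV and 7 in RV, against 64.7% and 53.5% of all tested genes. The groups did not overlap for 3 members in LV (Hspa1a, Dnajb1 and Hspa8) and 2 in RV (Dnajb1 and Hspa8), where the R14del-PLN samples were all lower for 8.47% and 5.79% of all tested genes. The order of the 3 WT-PLN samples was the same in LV and RV for 8 of the 10 members, all except Hspd1 and Hspe1. The share of all tested genes with the same order was not computed, so this count is a description.

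Without both WT-PLN samples numbered 1, limma called 6 members lower in the R14del-PLN LV, where 1.71% of all tested genes were called lower, and 4 members lower in RV, against 0.607% of all tested genes. The 6 members were Hspa1a, Hspa1b, Dnajb1, Dnaja1, Hsph1 and Hspa8, of which the first 4 were called in RV. This fit kept 2 WT-PLN samples per ventricle and treated LV and RV samples as independent. No fit of these samples with a block for the sample number was made, so its p-values may overstate the evidence. The log2 difference of Dnajb1 was then -1.66 in LV (adjusted p = 5.4e-05) and -1.56 in RV (adjusted p = 0.00011), and that of Dnaja1 was -1.17 and -1.01 (adjusted p = 0.00528 and 0.0177). Hspa1a was at -2.85 and -2.50 (adjusted p = 0.00531 and 0.0170), and Hspa1b at -3.26 and -2.74 (adjusted p = 0.00253 and 0.0109). Hsp90aa1, which had not passed, was at -0.79 in LV (adjusted p = 0.0564), and Bag3, Hspd1 and Hspe1 were not called in either ventricle. When LV sample 1 of WT-PLN hearts alone was left out, 2 members were called in LV, Dnajb1 and Hspa8 (adjusted p = 0.0228 and 0.0498), where 1.16% of all tested genes were called lower. Over all alternatives tried, the limma adjusted p of Dnajb1 ranged from 5.4e-05 to 0.758 in LV and from 0.00011 to 1.0 in RV. A set of WT-PLN samples without its lowest values differs more by construction, and whether the Y-linked difference bears on the chaperone levels was not tested.

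**Figure D3:**
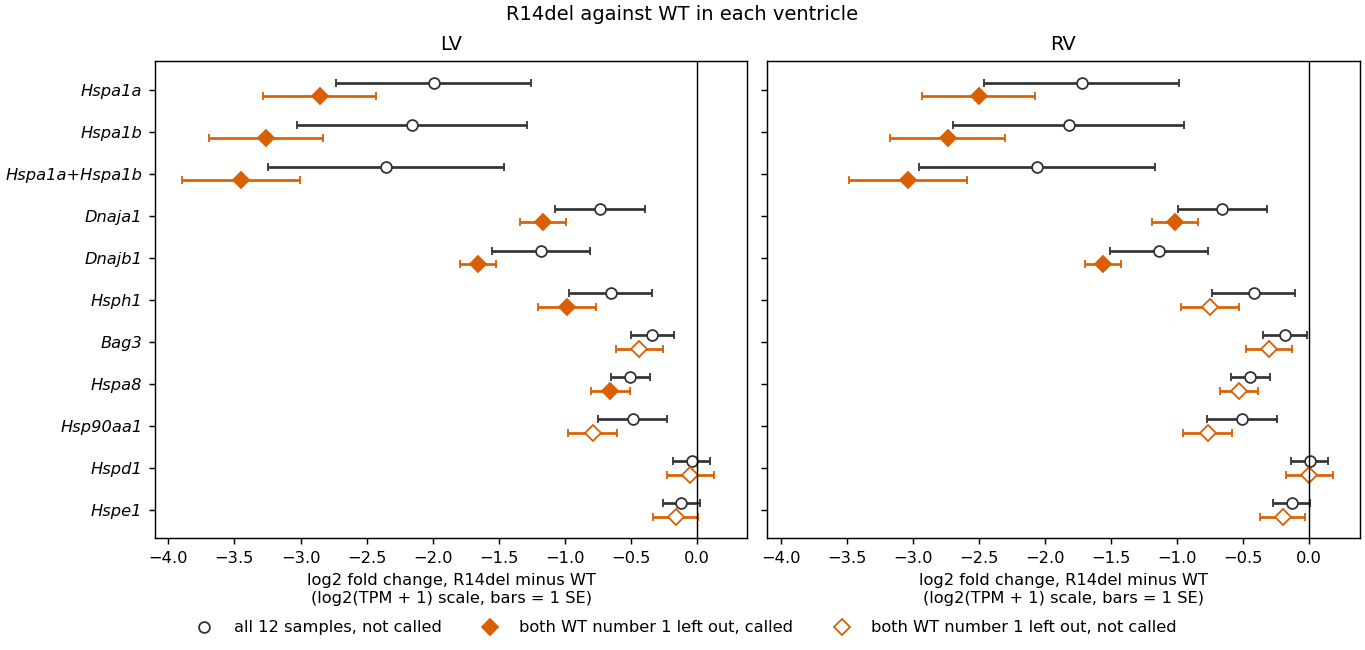
Log2 difference between R14del-PLN and WT-PLN hearts in LV (left) and RV (right) on the log2(TPM + 1) scale, with bars of 1 standard error, for all 12 samples (circles) and without both WT-PLN samples numbered 1 (diamonds). Filled symbols mark calls by limma. All circles are open, and 6 diamonds of single genes in LV and 4 in RV are filled.

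The ventricles were compared next. For the interaction of genotype and ventricle, 0 of 10 members passed (0% of all tested genes called, and 0 members at an unadjusted p of at most 0.05 in limma, which 1.01% of all tested genes passed), and the largest estimate was 0.33 for Hspa1b (standard error 1.23, adjusted p = 0.9999). A difference in response between RV and LV was therefore not detected, with standard errors of up to 1.23 on the log2 scale for single members. Between RV and LV of WT-PLN hearts, the log2 differences ran from -0.48 to 0.0091 with 0 members called and 0 at an unadjusted p of at most 0.05 (14.5% of all tested genes), against a median of -0.17 over all tested genes. Between RV and LV of R14del-PLN hearts, they ran from -0.29 to 0.05 with 0 called in limma and 0 at an unadjusted p of at most 0.05 (6.57% of all tested genes), against a median of -0.08. Bag3 was at 109.5 ± 12.9 TPM in LV and 89.3 ± 12.4 TPM in the WT-PLN RV (SD, n = 3 each), with a log2 difference of -0.29 (adjusted p = 0.396). In both comparisons 0% of all tested genes were called. Without both WT-PLN samples numbered 1, the smallest adjusted p of a member was 0.456 between ventricles of WT-PLN hearts (Dnajb1, log2 difference -0.29), 0.893 between ventricles of R14del-PLN hearts (Hsp90aa1, -0.29) and 0.9999 for the interaction.

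Other chaperone genes were examined as lists. Among 10 further HSP70 genes, 15 HSP90 family members and cochaperones, 11 further DNAJ genes, 9 exchange factors and regulators of HSP70 and 7 subunits of the TRiC chaperonin, 0 were called by limma in LV or RV. At an unadjusted p of at most 0.05, 3 HSP90 genes, 3 DNAJ genes and 1 TRiC subunit were lower in LV, 1 HSP90 gene was lower and 1 DNAJ gene higher in RV, and none of the others passed. Of all tested genes, 7.85% were lower at this threshold in LV and 3.4% in RV. Ptges3 (p23), which holds HSP90 in its closed form, was at 31.4, 42.2 and 38.8 TPM in the WT-PLN LV and at 26.8, 24.2 and 24.3 TPM in the R14del-PLN LV. The log2 difference of Ptges3 was -0.55 in LV (adjusted p = 0.118) and -0.36 in RV (adjusted p = 0.603), and in LV it was called without both WT-PLN samples numbered 1 (-0.67, adjusted p = 0.0247). Dnajb4, another HSP40, was at -0.52 in LV (adjusted p = 0.367) and Ahsa2, an activator of the HSP90 ATPase, at -0.46 (adjusted p = 0.468). Unc45b, the myosin chaperone of striated muscle, was at -0.28 in LV (adjusted p = 0.496). In RV, Dnajb4, Ahsa2 and Unc45b were at -0.29, -0.18 and -0.17. Other genes had positive differences. Dnajb14 was at 0.13 in LV (adjusted p = 0.797) and 0.31 in RV (adjusted p = 0.649). Bag6 was at 0.41 in LV (adjusted p = 0.580) and 0.44 in RV (adjusted p = 0.823). The medians of the lists in LV were -0.12 for HSP70, -0.25 for HSP90, -0.15 for DNAJ, -0.06 for exchange factors and -0.20 for TRiC genes, against -0.09 over all tested genes. In RV the same medians were -0.03, -0.09, -0.01, 0.05 and -0.10, against -0.0034. Without both WT-PLN samples numbered 1, Ptges3 in LV was the 1 gene of these 5 lists called in either ventricle, where 1.71% of all tested genes were called lower in LV and 0.607% in RV.

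The heat shock factors themselves were then examined. Hsf1 was at 11.4, 12.3 and 12.0 TPM in the WT-PLN LV and at 10.3, 10.9 and 13.02 TPM in the R14del-PLN LV, with overlapping ranges. Its log2 difference was -0.07 in LV (standard error 0.11, adjusted p = 0.911) and -0.09 in RV (standard error 0.11, adjusted p = 1.0), and 0 of the 4 tested heat shock factor genes (Hsf1, Hsf2, Hsf4 and Hsbp1) were called. Hsf4 was the 1 gene of these at an unadjusted p of at most 0.05, in RV only, where it was at 2.05, 2.01 and 1.82 TPM in WT-PLN and at 1.66, 1.34 and 1.13 TPM in R14del-PLN samples. These groups did not overlap, and the log2 difference of Hsf4 was -0.32 in RV (standard error 0.14, adjusted p = 0.763) and -0.10 in LV (adjusted p = 0.893). Among 14 other heat-inducible genes, 7 of which are also in the lists above, 0 were called, and 3 in LV and 2 in RV were lower at an unadjusted p of at most 0.05, as were 7.85% and 3.4% of all tested genes. Neither list had a call in LV or RV without both WT-PLN samples numbered 1. Hspb1 (HSP27), a small heat shock protein of muscle, was at 169.7, 285 and 256 TPM in the WT-PLN LV and at 162, 135 and 174 TPM in the R14del-PLN LV. WT-PLN sample 1 was again lowest of its group for Hspb1, and the log2 difference was -0.56 in LV (adjusted p = 0.441) and -0.64 in RV (adjusted p = 0.552). Serpinh1 (HSP47), the collagen chaperone, was at -0.39 in LV (adjusted p = 0.460) and -0.35 in RV (adjusted p = 0.801).

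The genes whose levels were most like the summed Hspa1a and Hspa1b level were found by Pearson correlation of log2(TPM + 1) over the 12 samples, among 12524 genes and as a description. The 10 most alike were Irs2 (r = 0.989), Eps8l1 (0.986), Sik1 (0.983), Fosl2 (0.977), Hand2 (0.969), Dnaja1 (0.963), Siah2 (0.958), Atf3 (0.956), Dnajb1 (0.952) and Nr4a3 (0.951). These samples share genotype groups and sample numbers. With the group means removed, which leaves the shared sample numbers in, the first 3 had r of 0.989, 0.992 and 0.981. These 3 genes were picked by their r on the same values, so this is no separate test. Irs2, the adaptor of insulin signalling, was at 1.30, 12.9 and 6.40 TPM in LV and at 1.29, 11.8 and 3.61 TPM in the WT-PLN RV, and between 0.536 and 0.982 TPM in the 6 R14del-PLN samples. Sik1, a kinase induced by cyclic AMP, was at 5.20, 25.6 and 13.6 TPM in LV and 3.42, 20.2 and 8.45 TPM in the WT-PLN RV. Of the other members, Hsp90aa1 ranked 30 (r = 0.924), Hspa8 48 (0.903), Hsph1 50 (0.901), Bag3 528 (0.739), Hspe1 2049 (0.542) and Hspd1 9012 (0.040).

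Immediate early genes, which respond within minutes to growth factors and to handling of tissue, were also high in WT-PLN samples 2 and 3. For 8 of the 9 genes of the list sample 3 was above sample 2 in both ventricles, and the exception, Atf3, had this order in LV only. Fos was at 1.19, 5.16 and 22.3 TPM in LV and at 0.519, 3.38 and 14.2 TPM in the WT-PLN RV, and between 0.287 and 0.958 TPM in R14del-PLN samples. Egr1 was at 1.54, 26.7 and 103 TPM in LV and at 1.03, 20.9 and 84.4 TPM in the WT-PLN RV, and between 1.08 and 3.05 TPM in R14del-PLN samples. Sample 3 was thus highest for Fos and Egr1 and sample 2 for Hspa1a and Hspa1b. Atf3 was at 2.46, 9.74 and 10.7 TPM in LV and at 1.42, 8.08 and 5.08 TPM in RV of WT-PLN hearts. With all samples, 0 of the 9 genes of the list (Fos, Fosb, Jun, Junb, Egr1, Ier2, Atf3, Dusp1 and Zfp36) were called by limma, and 8 in LV and 6 in RV were lower at an unadjusted p of at most 0.05, against 7.85% and 3.4% of all tested genes. Zfp36, which speeds the decay of AU-rich transcripts, was at -1.61 in LV (adjusted p = 0.0517) and -1.42 in RV (adjusted p = 0.122). Jun was at -0.68 in LV (adjusted p = 0.220) and Dusp1 at -1.23 (adjusted p = 0.208). Without both WT-PLN samples numbered 1, 7 of the 9 were called lower in LV and 3 in RV, against 1.71% and 0.607% of all tested genes. The part of these genes in the chaperone result was not tested.

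**Figure D4:**
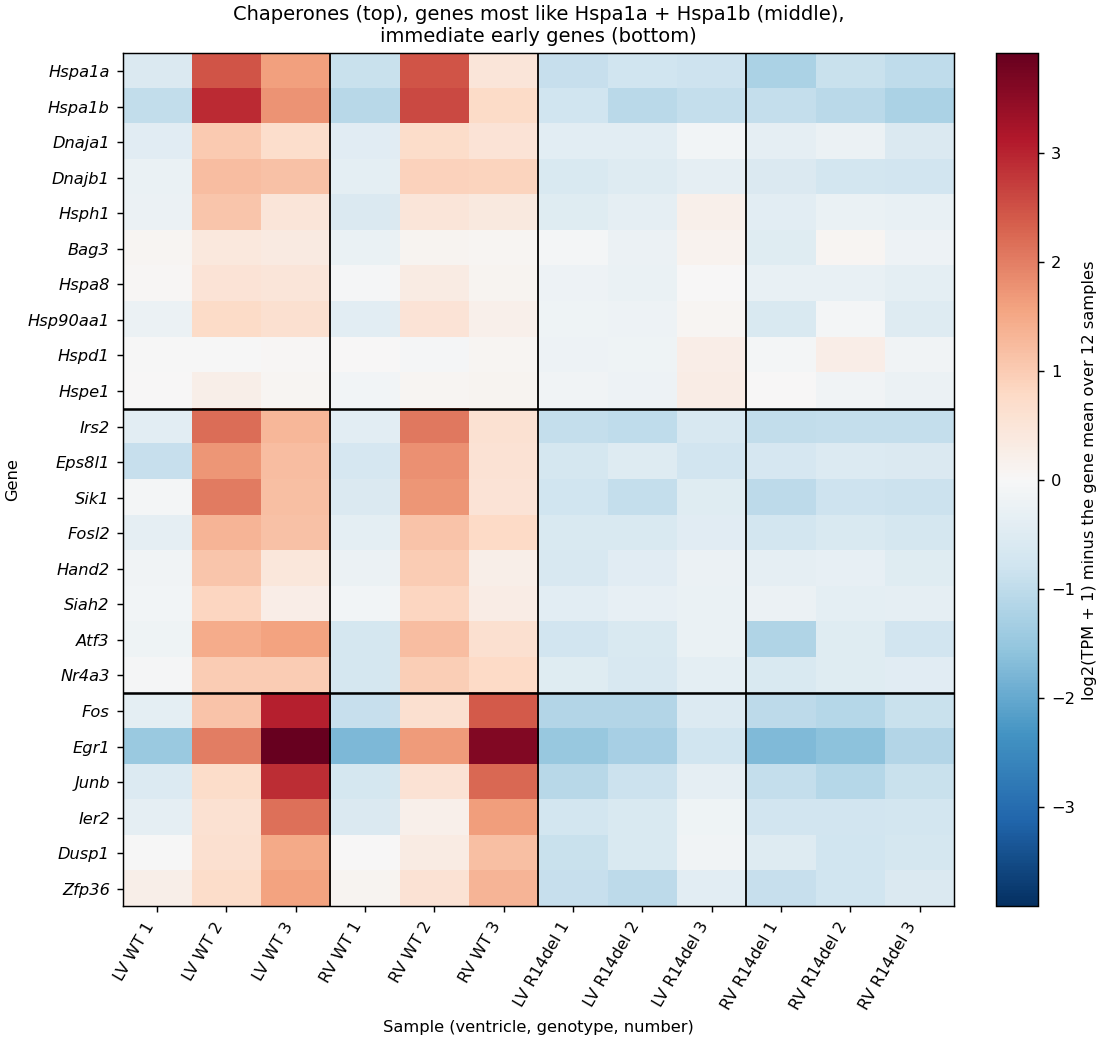
Colour gives log2(TPM + 1) minus the mean of the gene over 12 samples, for the 10 chaperone genes (top), the 8 other genes among the 10 most like summed Hspa1a and Hspa1b (middle) and 6 immediate early genes (bottom), with 1 column per sample. Hspa1a, Hspa1b, Irs2, Eps8l1 and Sik1 are darkest red in the WT-PLN samples 2 and the 6 genes of the bottom block in the WT-PLN samples 3, while Hspd1 and Hspe1 are pale throughout and highest in R14del-PLN LV sample 3.

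Markers of other cell types were compared beside the chaperones. Of the lists for cardiomyocytes, fibroblasts, endothelial cells, smooth muscle and pericytes, leukocytes, red cells, atrial cardiomyocytes and adipocytes, 0 genes were called by limma in LV or RV with or without both WT-PLN samples numbered 1. At an unadjusted p of at most 0.05 (all samples), the largest count was that of the red cell genes. Of these, 4 of 5 were lower in the R14del-PLN LV (7.85% of all tested genes) and 3 of 5 in RV (3.4% of all tested genes). The summed red cell markers were at 2087 to 2316 TPM in the WT-PLN LV and at 1093 to 2142 TPM in the R14del-PLN LV, and at 1461 to 1736 and 956 to 1368 TPM in RV. These ranges overlapped in LV and not in RV. The summed atrial markers were at 207 to 1274 TPM in the WT-PLN LV and at 147 to 321 TPM in the R14del-PLN LV, and at 91.8 to 843 and 48.8 to 518 TPM in RV, so that they overlapped in both ventricles. Within this list Myl7, the atrial myosin light chain, was at 39.4, 0.512 and 299 TPM in the WT-PLN LV and at 0.190, 0.440 and 0.329 TPM in the R14del-PLN LV. Myl7 in RV was at 1.35, 319.9 and 1.46 TPM in WT-PLN and at 28.5, 212 and 5.75 TPM in R14del-PLN samples. The LV groups of Myl7 did not overlap (log2 difference -4.32, standard error 1.96, adjusted p = 0.505), and its highest WT-PLN sample was number 3 in LV and number 2 in RV, while that of Hspa1a and Hspa1b was number 2 in both. The fibroblast markers were at 274 to 490 TPM and 225 to 351 TPM in LV. The endothelial list had 1 gene higher at that unadjusted p in each ventricle, and the lists for smooth muscle and for leukocytes had none. The share of TPM taken by mitochondrially encoded genes was 44.0% to 47.3% in WT-PLN and 37.3% to 51.2% in R14del-PLN LV samples, and 48.7% to 52.7% and 51.1% to 54.5% in RV samples. The part of these cell types, including atrial tissue, in the chaperone result was not tested. That of the mitochondrially encoded genes was not tested beyond the scaling without them, under which 0 members were called.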

How the data were processed

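Expression was measured in 12 heart samples by RNA sequencing of polyA libraries, prepared as stranded according to the study's methods. The authors deposited 1 TPM value per gene and sample, a length-scaled share of transcripts that sums to 1000000 in each sample, so depth is unknown and neither counting error nor detection floors can be given. Reads were mapped to GRCm38 in CLC Genomics Workbench according to the paper. The software that made the deposited TPM, and its handling of strand, are not given in the sources used here.

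Groups and numbers were taken from the sample labels. Of 33641 genes, 12526 averaging 0.5 TPM or more were tested with limma 3.58.1 in R 4.3.3 (4 group means in 1 model of all samples, empirical Bayes with an intensity trend, 8 residual degrees of freedom) on log2(TPM + 1), with Benjamini-Hochberg adjustment over all tested genes. Calls needed an adjusted p no larger than 0.05 and a difference of 1.5-fold or more, except for the interaction, which needed the adjusted p alone. The summed TPM of Hspa1a and Hspa1b was tested as 1 row in place of both, and by an exact permutation test. Simulated data with known changes were used to test the script.

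The members and lists were chosen with earlier results of these data known. The text names the 10 members, up to 3 genes with the smallest p in each list, and the 10 genes most like summed Hspa1a and Hspa1b. Fos, Egr1 and other genes outside this rule were picked with their values in view. Cct6a was not analysed here. Near-identical transcripts were found with BLAST 2.17.0 (95% identity, 80% of the shorter transcript), and promoters are from RefSeq. Tables were made in Python 3.11.15 with pandas 2.3.3 and numpy 2.4.6, and figures with matplotlib 3.10.9.

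Deviations from group means correlated between LV and RV samples of 1 number at 0.321 to 0.657 in WT-PLN hearts, against -0.457 to 0.00082 for different numbers. In R14del-PLN hearts the values were 0.0542 to 0.389, against -0.396 to 0.160, so these ranges overlapped. Deviations from a shared mean push different numbers towards negative values. The numbers thus appear to pair samples in WT-PLN hearts, less clearly in R14del-PLN hearts. The main fit treated LV and RV samples as independent. Between genotypes, samples of 1 number correlated at -0.0209 to 0.219. The mean was 0.0756 in LV and 0.138 in RV for the same number, against -0.0377 and -0.0700 for different numbers. What a shared number means between genotypes is not given in the sources used here. The alternatives were pseudocounts of 0.5 and 0.1, other filters, no trend, other scalings, fold thresholds, replicate blocks, single ventricles, and samples left out. The sum of Hspa8 with Gm15459 was added after the values were seen.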

Additional observations from a re-analysis of the deposited data

How the results depend on the processing

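With 1 sample left out in turn, 0 to 2 members were called in LV and 0 in RV, for the interaction, and between ventricles in either genotype. The summed Hspa1a and Hspa1b difference ranged from -3.45 to -1.55 in LV and from -3.04 to -1.07 in RV. Leaving out both WT-PLN samples numbered 1 gave 6 called members in LV and 4 in RV, and a sum of -3.45 in LV and -3.04 in RV. These samples held the lowest WT-PLN values of nearly all members. With all 12 samples and the replicate number or the possible animal as a block in limma, 0 members were called in any comparison. The number block in limma gave an adjusted p of 0.172 in LV and 0.376 in RV for the sum. No other pseudocount, filter, trend, scaling or fold threshold called a member, but the filter at 5 TPM removed Hspa1a.

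Hspd1 changed sign in LV under quantile normalization (0.073) and upper quartile scaling (0.082), and with 1 sample left out it ranged from -0.19 to 0.040 in LV and from -0.11 to 0.072 in RV, where it was -5.2e-05 without both samples numbered 1. Hspe1 changed sign in LV under upper quartile scaling (0.0017). The cause was not tested. TPM keeps no depth, so the precision of the lowest levels, those of Hspa1a and Hspa1b in R14del-PLN hearts, is unknown.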
